A study of Mus musculus with 18 samples.

Results

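The cells described here are upper dermal fibroblasts of mouse skin at embryonic day (E) 18.5, chosen by their transcripts in 1 droplet library. A cell was a member when it had at least 500 detected genes, under 20% mitochondrial unique molecular identifiers (UMIs, each standing for 1 captured transcript), no Epcam UMI and at least 3 UMIs of Col1a1 and Col3a1 together. It also needed at least 3 UMIs over Cpne5, Stmn2, Inhba, Crabp1 and Ptch1, and this sum had to exceed the sum of Pi16, Clec3b and Dpep1 as well as the sum of Pnoc, Npy, Sfrp4 and C1qtnf3. In all, 2665 cells met the rule. They were 31.2% (95% exact binomial interval 30.2 to 32.2) of the 8538 cells of the library with collagen UMIs and without Epcam, out of 149371 barcodes in the 18 libraries of the series.

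The study followed mouse mammary cells from the late embryo to the adult gland, and E18.5 skin beside the mammary rudiment was profiled as its control tissue. Skin and rudiments were dissected from the same pooled C57BL/6 embryos, which carried a green fluorescent reporter in the stem cell receptor gene Lgr5, and both were processed together. Per the study's methods, cells with red cell, endothelial or leukocyte surface markers (Ter119, CD31 and CD45) were removed and the rest sorted on CD24 and CD29. The postnatal day 5 library, used further on, came from mammary glands of C57BL/6 mice without a stated reporter. The labels call the skin cells epidermal, yet 8538 of the 9052 kept cells had 3 or more collagen UMIs and no Epcam UMI. The study itself reported fibroblast genes in its main group of skin cells, and a likeness to fetal epidermis in another group. The skin was a single library, so no difference between its cells was tested, and every interval below is a 95% interval that covers counting error only.

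Dermal fibroblasts are layered. Those of the upper, papillary layer lie beneath the epidermis, respond to its WNT and hedgehog signals, and form the dermal condensates and papillae that instruct hair follicles. Those of the lower, reticular layer make most of the fibrillar matrix, and the fat layer under them holds the adipose lineage.

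The 5 genes that chose the cells have different roles. Crabp1 (chr9:54764748-54773110, plus strand) encodes a retinoic acid binding protein of the cytoplasm. Ptch1 (chr13:63508328-63573598, minus strand) encodes the hedgehog receptor and is itself switched on by the pathway. Inhba (chr13:16011851-16031621, plus strand) encodes the activin A subunit. Stmn2 (chr3:8509360-8561606, plus strand) encodes a microtubule regulator best known from neurons, and Cpne5 (chr17:29155556-29238167, minus strand) a calcium-dependent membrane binding protein. These positions are whole genes of the GENCODE vM21 annotation of GRCm38, the mm10 build that the labels name.

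Promoters of 4 genes discussed below are shown because their 300 bases hold a core site of the Notch effector RBPJ (GTGGGAA) or a WNT effector site of the TCF/LEF family (CTTTGATC), searched on both strands and set in capitals. The sequences are those of RefSeq on GRCm38.p6, from 250 bases before to 50 after the transcript start.
Hes5 (chr4:154960673-154960972, plus strand): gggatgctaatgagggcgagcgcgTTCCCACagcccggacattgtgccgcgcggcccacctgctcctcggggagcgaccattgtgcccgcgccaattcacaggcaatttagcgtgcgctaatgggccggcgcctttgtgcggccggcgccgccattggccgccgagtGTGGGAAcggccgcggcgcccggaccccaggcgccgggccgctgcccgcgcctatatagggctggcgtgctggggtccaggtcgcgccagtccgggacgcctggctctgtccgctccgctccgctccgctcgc
Lef1 (chr3:131110047-131110346, plus strand): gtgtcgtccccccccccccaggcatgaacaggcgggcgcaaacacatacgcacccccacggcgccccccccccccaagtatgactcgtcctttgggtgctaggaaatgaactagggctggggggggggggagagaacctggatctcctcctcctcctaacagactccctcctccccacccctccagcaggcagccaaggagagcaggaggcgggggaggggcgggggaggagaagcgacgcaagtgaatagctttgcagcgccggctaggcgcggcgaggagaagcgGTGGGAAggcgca
Sp5 (chr2:70474673-70474972, plus strand): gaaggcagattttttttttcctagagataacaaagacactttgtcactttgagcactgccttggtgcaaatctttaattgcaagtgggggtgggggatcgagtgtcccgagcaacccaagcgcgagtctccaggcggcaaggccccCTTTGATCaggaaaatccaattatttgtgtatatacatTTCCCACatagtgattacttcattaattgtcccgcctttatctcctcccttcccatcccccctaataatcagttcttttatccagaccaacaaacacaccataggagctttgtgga
Cpne5 (chr17:29237741-29238040, minus strand): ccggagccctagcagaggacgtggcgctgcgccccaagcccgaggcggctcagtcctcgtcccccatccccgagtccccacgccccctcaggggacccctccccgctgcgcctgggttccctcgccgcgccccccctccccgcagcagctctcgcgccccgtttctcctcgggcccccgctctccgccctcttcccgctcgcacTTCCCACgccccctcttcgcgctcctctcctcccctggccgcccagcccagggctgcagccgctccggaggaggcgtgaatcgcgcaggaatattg

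Hes5 encodes a repressor switched on by Notch, Lef1 a transcription factor of the WNT pathway and Sp5 a WNT-induced transcription factor. Of the 32851 mouse promoters, 6.38% held the RBPJ core and 0.938% the TCF/LEF letters. The hedgehog effector site of the GLI family (GACCACCC) was in 0.807%. Among the 20 genes with the highest ratios to the other collagen cells, 12 had a promoter entry, and Hes5, Lef1, Frzb and Gm11541 held the RBPJ core. Some genes had several transcript starts, which gave 19 promoters for those 12 genes, 5 of them with the core. None of the 19 held the TCF/LEF letters and 1 held the GLI letters. The 10 matched WNT targets that were 2-fold higher had 15 promoters, of which 2, those of Sp5 and Tnfrsf19, held the TCF/LEF letters and none the GLI letters. The only promoter entry among the 2-fold higher hedgehog genes held no GLI letters. A match describes letters in the window and nothing about binding.

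The rule genes overlapped only in part in single members. Crabp1 had a UMI in 74.2% of members, Ptch1 in 64.0%, Cpne5 in 52.4%, Stmn2 in 32.3% and Inhba in 31.4%. Crabp1 contributed the most rule UMIs in 1252 members, Ptch1 in 452, Stmn2 in 325, Cpne5 in 171 and Inhba in 146, while 319 members were tied. All 5 genes were found together in 83 members, and 429 members had UMIs of 1 rule gene alone. Without Crabp1, 58.9% of the members still reached the UMI minimum of the rule. This share is an upper limit for passing, since the comparison with the other marker sums was not repeated.

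By summed counts the rule genes were far above the other cells, as the rule dictates. Crabp1 stood at 589 UMIs per 1000000 UMIs of the group (CPM) in members, 90.0 in the 1660 cells that the Pi16, Clec3b and Dpep1 sum defined in the same way (the Pi16 set), 75.4 in the 1038 cells of the Pnoc, Npy, Sfrp4 and C1qtnf3 sum (the Pnoc set) and 88.6 in the 3175 collagen cells in no set. Stmn2 was the least even of the 5 outside the members, at 60.0 CPM in the Pnoc set against 10.4 in the Pi16 set and 12.1 in no set. The 152 kept cells with at least 3 Epcam UMIs, which should lack dermal genes, gave the level that free RNA or expression of their own can reach. Ptch1 was at 87.0 CPM in these Epcam cells, above its 35.0 in the other collagen cells, and Crabp1 was at 50.3. Their median depth was 9234.5 UMIs per cell against 4811 in members.

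**Figure D1:**
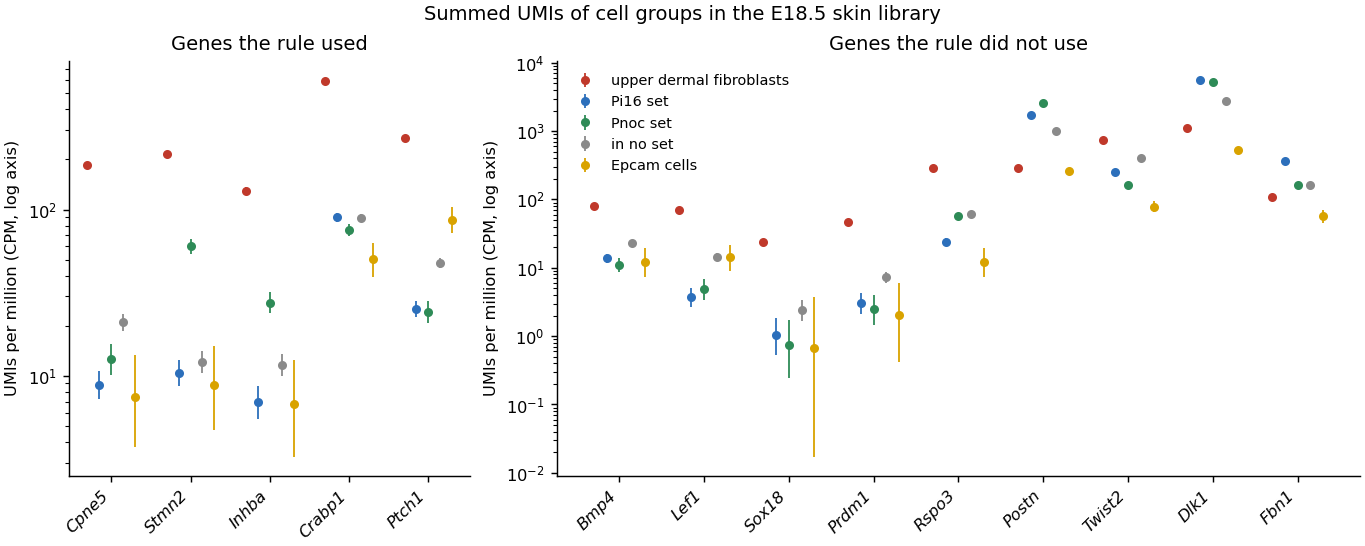
CPM of summed UMIs (log axis) for the rule genes (left) and for genes the rule did not use (right) in upper dermal fibroblasts, the Pi16 set, the Pnoc set, collagen cells in no set and Epcam cells of the E18.5 skin library. Points are group sums and bars are 95% Poisson intervals. Sox18 stood at 24.1 CPM in members and at or below 2.42 in the other groups, while Postn stood at 287 in members and 1584 in the other collagen cells together.

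The threshold of the rule fell inside a continuum. The 482 members at exactly 3 rule UMIs had 36.4 CPM of Lef1, 331 of Postn and 768 of Twist2, and the 567 cells just outside, with 2 rule UMIs above both other sums, had 34.0, 538 and 639. A further 334 cells had 3 or more rule UMIs but were tied or beaten by another sum. Depth also enters the rule, since 3 UMIs are reached more easily in deep cells. When every cell was thinned to 2000 UMIs before the rule was read, 1318 cells met it.

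The label was checked against markers. Bmp4, a marker given for these cells that the rule did not read, encodes a secreted morphogen of the upper dermis and hair follicle. It stood at 81.0 CPM (76.4 to 85.8) in members and 17.3 (15.9 to 18.8) in the other collagen cells, a 4.69-fold difference (4.24 to 5.195). All 6 general fibroblast markers were present, at 23957 CPM in sum in members and 39350 in the other cells. Epcam cells still carried 4955 CPM of them and a median of 24 collagen UMIs per cell, against 49 in members, and all 152 of them reached 3 UMIs of these markers. Markers of other cell types were present at low levels. Pericyte and smooth muscle markers reached 3 UMIs in 65 members and 751 of the other cells, tendon or cartilage markers in 52 and 665, epidermal markers in 38 and 91, Schwann cell markers in 28 and 400, neuron markers in 27 and 241, adipocyte markers in 16 and 141 and endothelial markers in 11 and 61. The summed endothelial level was nonetheless near equal, at 44.4 CPM in members and 40.6 in the others, with Cdh5 at 4.02 against 1.80 CPM (ratio 2.23), Cldn5 at 8.66 against 4.43 (1.96), Emcn at 0.916 against 0.214 (4.29) and Pecam1, whose protein CD31 was used for depletion, at 7.89 against 16.9 (0.467). In cluster 5 of the members, a group described below, Cdh5 was at 50.4 CPM, and in the rest of the members at 0.530, under the other collagen cells. The endothelial sum was 288 CPM in cluster 5, 39.3 in cluster 2 and 18.8 in cluster 1. Skeletal muscle, red cell, immune and melanocyte markers reached 3 UMIs in 5 members or fewer. The smooth muscle genes Acta2 and Tagln stood at 25.8 and 16.6 CPM in members and at 60.8 and 35.1 in the others. Of the same list Kcnj8, Abcc9, Des and Rgs5 were lower too. Cspg4 (14.8 against 15.1 CPM) and Myh11 (1.69 against 1.62) were near equal, and Notch3 was higher (10.6 against 7.66). Besides Epcam, which the rule set to 0, the markers at 0 in members were Rgs5, Ptprc, Cd52, Mlana and Alas2, and the last 4 of these were also at or below 0.183 CPM in the other cells.

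Between members and all 5873 other collagen cells, 483 of 11459 genes were at least 2-fold higher in members (4.22%) and 792 were at least 2-fold lower (6.91%). These cells were chosen on transcripts of the same cells, so the counts describe the contrast and are no test of it. Genes needed 100 UMIs over both groups, and the genes of the rule were left out. The median log2 ratio over all tested genes was 0.10, and setting it to 0 left 371 genes higher and 900 lower.

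Sox18, a transcription factor of endothelium and of the hair follicle papilla, had the highest ratio of all genes found in 5% or more of members. It stood at 24.1 CPM (21.6 to 26.8) in members and 1.59 (1.19 to 2.08) in the others, a ratio of 15.2 (11.3 to 20.7). It was found in 10.1% of members, 0.834% of the others and 0.658% of the deeper Epcam cells. Prdm1, a repressor that marks the papillary lineage, was at 46.1 against 4.79 CPM (9.61-fold, 8.07 to 11.5). Lef1 was at 70.0 against 8.70 CPM (8.05-fold, 7.05 to 9.22) and its relative Tcf7 at 59.2 against 7.69 (7.70-fold). Runx3, a runt family factor, was at 53.0 against 8.03 CPM (6.60-fold). All 5 were also over 12-fold higher than in the Pi16 set.

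The 20 highest ratios also took in Dll1, Hes5 and Hey1. Dll1 encodes a Notch ligand, and it was at 12.5 against 1.07 CPM (11.7-fold, 8.09 to 17.3). Hes5 and Hey1 encode repressors that Notch can switch on, and they were at 22.75 against 2.41 CPM (9.44-fold) and at 46.1 against 8.03 (5.75-fold). In members outside cluster 2, a group described below, Dll1 was at 2.03 CPM and Hes5 at 5.21. No list of Notch genes was compared, and the receptor Notch3 was at 10.6 against 7.66 CPM, a ratio of 1.38. Dll1 also reached 9.52 CPM and Hey1 19.04 CPM in Epcam cells, whereas Hes5 was at 0.680. Tfap2c (10.7-fold) and Adamts18 (9.71-fold) were likewise seen in Epcam cells, at 57.8 and 18.4 CPM, the first of them above its level in members.

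The rest of the 20 included secreted and matrix genes. Ibsp, which encodes bone sialoprotein, was at 69.5 against 4.67 CPM (14.9-fold, 12.5 to 17.8), yet it was found in only 6.90% of members, against 1.80% of the others and 1.32% of Epcam cells. Rspo3, a secreted amplifier of WNT signals, was the most abundant of the 20, at 293 against 47.3 CPM (6.19-fold, 5.84 to 6.57) and in 49.3% of members against 9.21% of Epcam cells. Others among them were Gm11541, Galnt9, Lamc3 (a laminin chain), Frzb (a secreted WNT antagonist), Sgip1, Grk3 and Ndnf, between 5.68-fold and 8.91-fold higher. Among the alternative settings Tfap2c ranged from 5.21-fold to 16.2-fold, Dll1 from 9.13-fold to 17.6-fold and Hes5 from 7.86-fold to 15.6-fold, and Galnt9, Frzb and Rspo3 reached 12.2-fold, 13.1-fold and 9.39-fold.

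**Figure D2:**
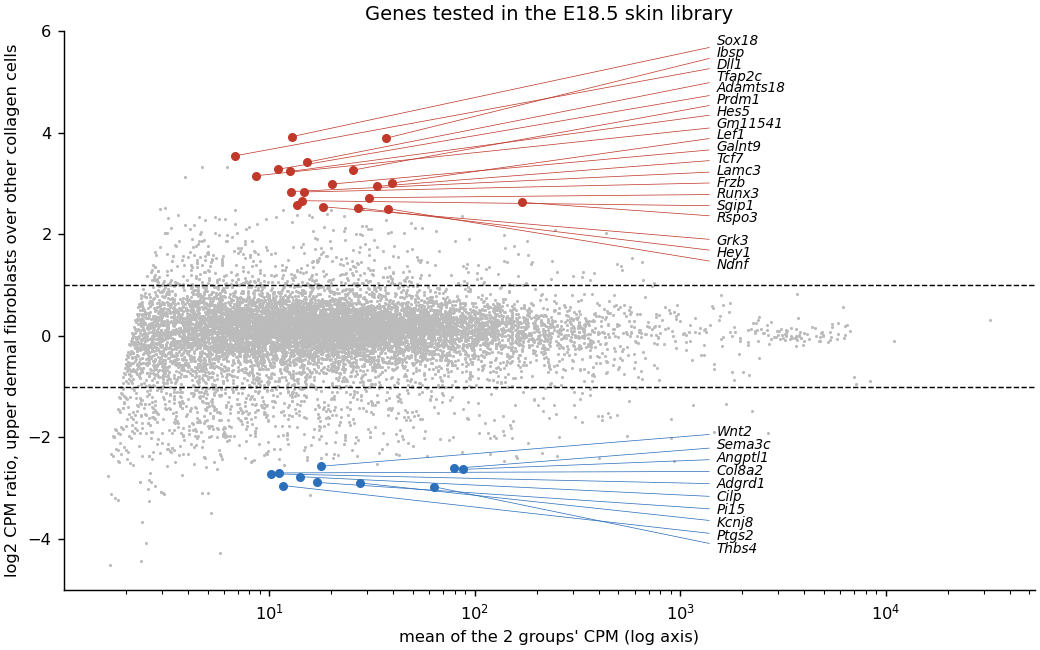
The log2 CPM ratio of upper dermal fibroblasts over other collagen cells (vertical) against the mean of both groups' CPM (horizontal, log axis), with 1 point per tested gene. Dashed lines mark 2-fold, red points are the 20 highest genes and blue points the 10 lowest among genes found in 5% or more of the cells of the higher group. Rspo3 lies furthest to the right of the red points, and 483 genes lie on or above the upper line.

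The 10 genes with the lowest ratios included matrix and matrix-associated genes. Thbs4, a thrombospondin of tendon and muscle attachment, was at 14.4 CPM in members and 113 in the others, 7.85-fold lower (6.81 to 9.08). Kcnj8, a potassium channel subunit, was 7.44-fold lower, and Ptgs2, the inducible prostaglandin synthase, 7.71-fold lower. Pi15, Cilp, Adgrd1, Col8a2, Angptl1, Sema3c and Wnt2 were between 5.92-fold and 7.39-fold lower. Angptl1 was the most abundant of the 10, at 24.4 CPM in members and 151 in the others. Several of these differences moved by over 1.5 times among the alternative settings. At the most, Adgrd1 was 27.5-fold lower, Thbs4 13.8-fold, Pi15 12.1-fold, Wnt2 11.8-fold and Ptgs2 10.4-fold, and at the least Kcnj8 was 4.81-fold, Ptgs2 4.58-fold and Cilp 4.49-fold lower.

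The comparison sets pulled on different genes. Against the Pi16 set, 881 of 10165 genes were 2-fold higher (8.67%) and 600 lower (5.9%), and against the Pnoc set 771 of 9763 were higher (7.9%) and 565 lower (5.79%). Against the cells in no set the counts fell to 223 (2.11%) and 485 (4.59%) of 10558. Akr1c18, a steroid-converting enzyme, was 49.7-fold lower than in the Pi16 set, with 0.564 against 28.0 CPM. Cyp26a1, a retinoic acid degrading enzyme, was 26.9-fold lower than in the Pnoc set, with 0.634 against 17.0 CPM. Both genes had few UMIs in members and met the gene filter through the comparison set, so the size of these ratios is uncertain. Against all other collagen cells, Akr1c18 was 8.95-fold to 20.8-fold lower among the alternative settings and Cyp26a1 3.96-fold to 15.9-fold lower. Sox18 was 23.1-fold higher than in the Pi16 set and 32.5-fold higher than in the Pnoc set, and 9.97-fold higher than in cells of no set.

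The gene lists are read beside the shares over all 11459 genes, of which 4.22% were 2-fold higher and 6.91% 2-fold lower with a median log2 ratio of 0.10. The lists were chosen with earlier results of these data known, and they share genes, so their counts are not independent of each other. Sox18, Prdm1, Lef1, Bmp4, Trps1 and Wif1, for example, count as higher in both the papillary and the condensate list. Of 24 tested papillary and upper dermis genes, 15 were 2-fold higher, 4 were 2-fold lower and the median log2 ratio was 1.35. Col23a1, a membrane collagen of the papillary layer, was at 145 against 28.2 CPM (5.14-fold). Trps1, a hair and skeletal transcription factor, was at 397 against 93.0 CPM (4.26-fold), and Twist2, a dermal transcription factor, at 740 against 299 (2.47-fold, and 1.91-fold at the lowest among the alternative settings). Efhd1 (3.91-fold), Lrrn4cl (3.62-fold), Pdpn (2.48-fold) and Dpp4 (2.28-fold) were lower. Pdpn encodes podoplanin and Dpp4 a surface peptidase, both used as markers of papillary fibroblasts.

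Of 28 tested dermal condensate and papilla genes, 21 were 2-fold higher and 1 was 2-fold lower, with a median log2 ratio of 1.77. The endothelin Edn3 was at 48.8 against 11.4 CPM (4.30-fold) and the chemokine receptor Cxcr4 at 18.0 against 3.54 (5.09-fold). Sox2, a factor of the condensate, was at 18.4 against 8.24 CPM (2.23-fold, 1.87 to 2.65), 1.97-fold at the lowest among the settings, and at 7.81-fold once cells with markers of other types were left out of both groups. Schwann cells also express Sox2, and their markers stood at 44.1 CPM in members and 166 in the other cells. Among the clusters of members described below, Sox2 was at 65.4 CPM in cluster 2, 91.4 in cluster 6 and 9.07 in cluster 5. In clusters 1, 3 and 4 it was at 5.62, 3.36 and 5.21 CPM, under the 8.24 of the other collagen cells. The fibroblast growth factor Fgf7 was the lower gene, at 7.40 against 20.5 CPM. Ratios of Fst (1.06), Cdkn1a (1.09) and Fgf10 (1.31) stayed under 2-fold.

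Genes of the deep layers were lower in most cases. Of 26 tested reticular, hypodermal and adipose lineage genes none was 2-fold higher, against 4.22% of all genes, and 19 were 2-fold lower, against 6.91%, with a median log2 ratio of -1.61. Dlk1, an imprinted preadipocyte gene, was at 1125 CPM in members and 4238 in the others (3.77-fold lower, 3.70 to 3.83). Ly6a, which encodes the surface protein Sca-1, was at 68.1 against 294 (4.32-fold lower). Mfap5, a microfibril protein, was 4.93-fold lower, and Ebf2, a regulator of adipocyte precursors, 4.99-fold lower. The adipocyte factors Pparg (6.06 against 11.1 CPM) and Cebpa (33.8 against 21.8 CPM) did not reach 2-fold.

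WNT ligands were split. Wnt10a was at 9.44 against 1.92 CPM (4.91-fold), with Wnt11 (2.25-fold) and Wnt4 (2.06-fold, 1.73-fold at the lowest) also past 2-fold, while Wnt2 (5.92-fold) and Wnt9a (2.48-fold) were lower, and 9 of 15 ligands had enough UMIs. Wnt10a reached 9.52 CPM in Epcam cells. Among 19 tested receptors and agonists, Rspo3, Fzd10 (3.44-fold, 1.90-fold at the lowest among the settings), Rspo1 (2.24-fold) and Fzd3 (2.01-fold, 1.87-fold at the lowest) were higher and Rspo2, Fzd4, Lgr5 and Fzd8 lower. Lgr5, the receptor tagged by the reporter, was at 4.79 against 19.6 CPM.

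WNT targets and inhibitors were mostly higher, with 12 of 23 past 2-fold up, 3 past 2-fold down and a median log2 ratio of 1.20. Of these 12, Lef1, Nkd1, Nkd2, Wif1, Axin2 and Twist2 had already counted as higher in the papillary list. Axin2, a feedback inhibitor and standard readout of the pathway, was at 38.8 against 11.99 CPM (3.24-fold). The feedback genes Nkd1 (222 against 55.9 CPM) and Nkd2 (82.8 against 19.1 CPM) were likewise higher, as were the secreted inhibitors Dkk1 (62.9 against 15.1 CPM), Wif1 (283 against 77.7 CPM) and Notum (8.59 against 0.855 CPM, in 3.94% of members). Sfrp1 (3.49-fold) and Sfrp2 (3.22-fold), secreted WNT binding proteins, were lower. The effector Ctnnb1 had a ratio of 1.42.

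In the hedgehog pathway 3 of 18 tested genes were 2-fold higher, among them Gli1 and Hhip, which hedgehog signalling switches on. Gli1, a transcription factor, was at 54.4 against 17.0 CPM (3.21-fold, 2.87 to 3.58) and Hhip, a feedback inhibitor, at 32.5 against 13.98 (2.32-fold, and 1.68-fold at the lowest among the settings). The transducers Smo (1.42), Gli2 (1.60), Gli3 (0.928) and Sufu (1.35) had smaller ratios. The ligand Dhh, which Schwann cells make, was at 2.39 against 8.15 CPM and in 0.938% of members, and its ratio moved from 0.294 to 0.782 without cells bearing markers of other types.

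BMP and TGF-beta ligands divided evenly, with 4 of 11 higher and 5 lower. Bmp3 (61.1 against 12.5 CPM, 4.89-fold), Bmp4, Bmp7 (89.7 against 20.5 CPM, 4.38-fold) and Tgfb1 (2.73-fold) were higher. In members outside cluster 2, a group described below, Bmp3 was at 11.7 CPM and thus not above the other collagen cells. Bmp5 (6.46-fold), Tgfb2 (27.1 against 84.0 CPM), Gdf10 (2.83-fold), Tgfb3 (2.55-fold) and Bmp2 (2.22-fold, 1.87-fold at the lowest) were lower. Of the receptors, 9 of 11 were within 2-fold, with Bmpr1a at a ratio of 1.06. The BMP target Id1 was at 713 against 266 CPM (2.68-fold) and Id2 and Id3 were within 2-fold, at ratios of 1.52 and 1.15.

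For FGF signalling, the receptors Fgfr1 (459 against 207 CPM, 2.22-fold) and Fgfr2 (52.3 against 20.8 CPM, 2.52-fold) and the target genes Etv4 (2.32-fold, 1.92-fold at the lowest) and Spry1 (2.14-fold, 1.997-fold to 3.81-fold among the settings) were higher. The ligands Fgf9 (5.30-fold, up to 9.81-fold among the settings), Fgf18 (2.96-fold) and Fgf7 were lower, in a list of 15 tested genes. In the retinoid list, Cyp26b1, which degrades retinoic acid, was the 1 of 17 genes that was higher, at 126 against 34.7 CPM (3.63-fold), a share near the 4.22% of all genes. Cyp26a1, Aldh1a1, Rbp4 and Aldh1a3 were lower, and Crabp2, the relative of the rule gene Crabp1, had a ratio of 0.915.

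**Figure D3:**
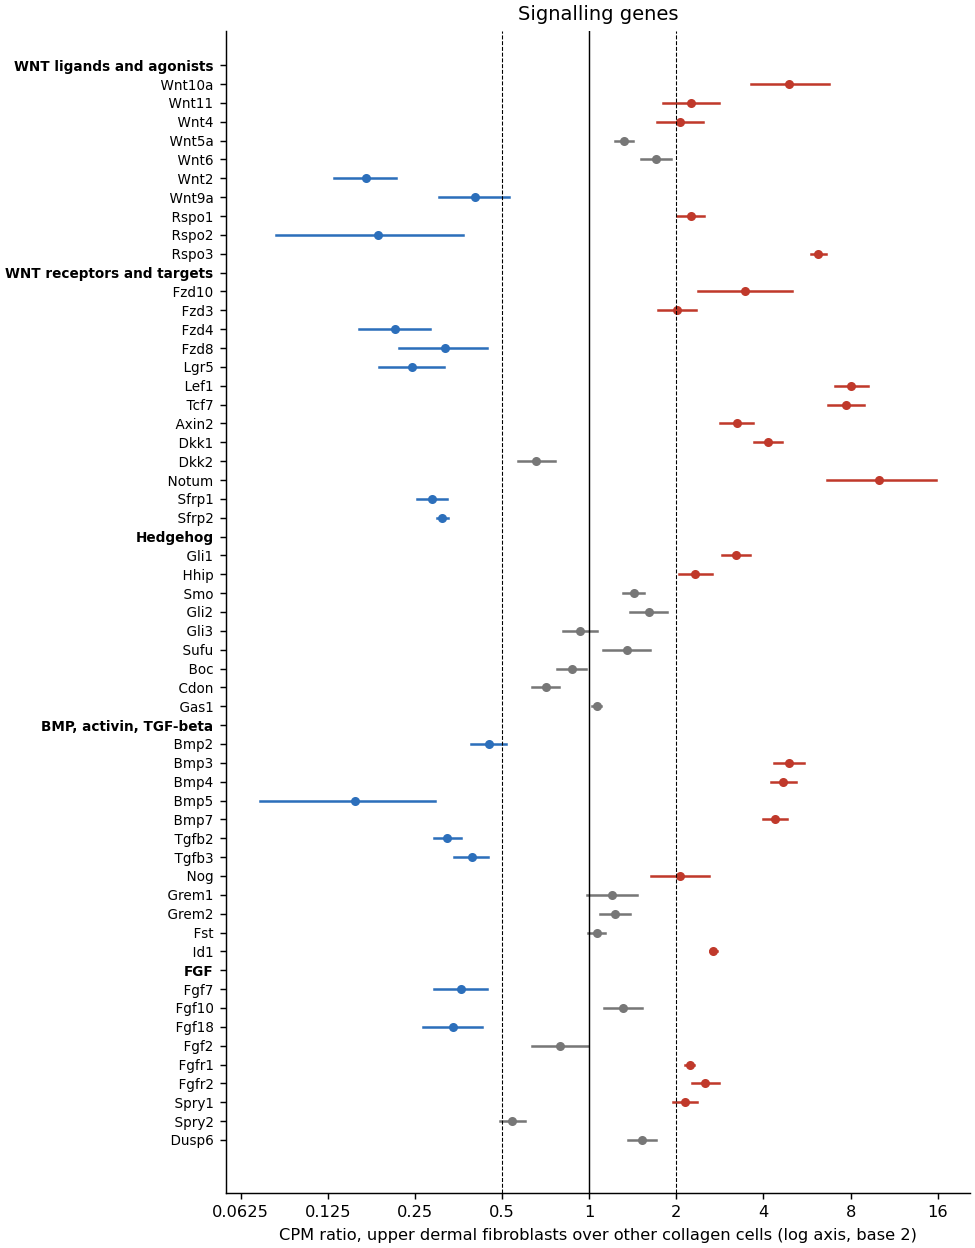
The CPM ratio of upper dermal fibroblasts over other collagen cells (log axis, base 2) for selected tested genes of 5 signalling groups. Points are ratios of summed UMIs, bars are 95% intervals for counting error, and dashed lines mark 2-fold. Red genes were at least 2-fold higher and blue genes at least 2-fold lower, with Lef1 at 8.05 and Bmp5 lower by 6.46-fold.

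Over all genes more were 2-fold lower (792) than higher (483), and the same order was seen among matrix genes. Of 28 tested collagen genes 3 were higher and 10 lower, with a median log2 ratio of -0.72. The fibrillar collagen chain Col1a2 was at 5894 CPM in members and 10832 in the others (1.84-fold lower). Col7a1, which anchors the epidermis to the dermis, was higher at 215 against 64.4 CPM (3.34-fold), as were Col23a1 and Col26a1 (4.21-fold). Among 46 glycoprotein and proteoglycan genes 3 were higher and 22 lower. Postn (periostin) was at 287 against 1584 CPM (5.52-fold lower, 5.35 to 5.70), Fn1 (fibronectin) at 209 against 625 (2.99-fold lower) and Aspn (asporin) at 128 against 675 (5.28-fold lower). Lum (lumican) was at 1327 against 1034 CPM, a ratio of 1.28. Among 30 matrix enzymes and inhibitors 2 were higher, Adamts18 and Loxl4 (2.14-fold, 1.63-fold at the lowest), and 8 were lower, including the collagen crosslinker Lox (2.77-fold), where 4.22% and 6.91% of all genes were.

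Of 50 tested mesenchymal transcription factors 20 were higher and 10 lower. Beyond those already given, Foxd1 (16.1 against 3.23 CPM, 4.96-fold), Runx2 (3.77-fold), Sox11 (2.66-fold), Ebf1 (743 against 286 CPM, 2.60-fold) and Tbx18 (2.06-fold, 1.76-fold at the lowest) were higher. Meox1 (5.34-fold), Pitx1 (3.83-fold) and Nr2f1 (3.74-fold) were lower. Among the settings Ebf1 reached 4.32-fold higher, Meox1 8.99-fold lower and Nr2f1 7.06-fold lower. En1 (1.28) and Tbx15 (1.75), patterning factors of trunk dermis, stayed within 2-fold. Among 23 HOX genes with enough UMIs, 4 were higher (Hoxb5, Hoxd9, Hoxb8 and Hoxb2, 2.07-fold to 2.95-fold) and none was lower. Hoxd9 (1.89), Hoxb8 (1.81) and Hoxb2 (1.93) fell under 2-fold at the lowest among the settings.

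Nerve and vessel guidance genes were balanced, with 9 of 48 higher and 9 lower. The neurotrophin Ntf3 was at 33.9 against 6.10 CPM (5.55-fold), Nrtn at 101 against 31.7 (3.20-fold, with 95.9 CPM in Epcam cells) and Robo2, a Slit receptor, at 243 against 79.9 (3.05-fold). Ptn (pleiotrophin) was at 356 against 1437 CPM (4.04-fold lower) and Epha3 4.22-fold lower. The endothelin receptor Ednra was 3.69-fold higher. Ednrb was 2.29-fold lower, and this turned to a ratio of 1.13 without cells bearing markers of other types.

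Imprinted growth genes were lower as a list, with 9 of 16 past 2-fold, none higher and a median log2 ratio of -1.25. H19, a noncoding RNA, was at 945 against 2386 CPM, and Cdkn1c, a cell cycle inhibitor, at 1182 against 3283. Genes of dissociation and early stress responses were lower or within 2-fold, with Atf3 at 201 against 597 CPM. Of the mammary mesenchyme list, Lef1 and Pth1r (209 against 76.8 CPM, 2.73-fold), the receptor for parathyroid hormone related protein, were higher, and Esr1 and Tnc were lower among 9 tested. Of 5 tested stathmin and copine genes other than the rule genes, Cpne8 (2.22-fold) and Stmn1 (2.07-fold) were higher and Stmn4 was lower. At the lowest among the settings Cpne8 was at 1.97-fold and Stmn1 at 1.55-fold, and neither passed 2-fold when the rule was read after thinning.

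Cell cycle genes leaned upward, and the number past 2-fold changed with the setting. Of 24 genes, 8 were 2-fold higher and none lower, with a median log2 ratio of 0.81, and Top2a stood at 323 against 149 CPM. After thinning to 2000 UMIs per cell, 43.5% (41.6 to 45.5) of members and 32.1% (30.9 to 33.4) of the others had 3 or more UMIs of the list, and without thinning the shares were 69.2% and 66.8%. With sums taken after thinning the median was 0.72, with cells weighted equally 0.68, and 1 gene was past 2-fold in each. When the rule itself was read after thinning, which left 1318 members, the median was 0.13 and no cell cycle gene reached 2-fold. The thinned share left out 107 members and 365 other cells that were shallower than 2000 UMIs.

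The members were not uniform. Clustering them on genes outside all lists above gave 6 groups, and these are numbered here and described by their leading genes. Cluster 2 (737 cells, 27.7%) led with Ibsp, Bmp3, Tspan7, Tfap2c and Hes5. In it 17 of 25 condensate and papilla genes were 2-fold above the rest of the members, with a median log2 ratio of 1.43, where 446 of all 8725 genes of that comparison (5.11%) were. Its CPM were 86.6 for Sox18, 65.4 for Sox2, 149 for Prdm1, 918 for Rspo3, 38.6 for Notum, 678 for Stmn2 and 423 for Inhba, against 11.5, 5.62, 32.6, 169, 1.41, 91.4 and 83.8 in cluster 1. Stmn2 and Inhba are rule genes, so their levels among members are shaped by the rule, and nothing is read from their split. Col1a2 was lowest in cluster 2, at 1851 CPM.

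Cluster 1 (827 cells, 31.0%) led with Slitrk6, Eln, Aqp1 and Wisp1. Twist2 was at 1163 CPM there and at 247 in cluster 2, Dkk1 at 110 against 17.7, Eln (elastin) at 855 against 254 and Crabp1 at 850 against 464. Crabp1 is a rule gene, and nothing is read from its split either. Cluster 3 (599 cells, 22.5%) held cycling cells, with 23 of 24 cell cycle genes 2-fold above the other members, against 454 of 8725 genes (5.2%), and Mki67 at 196 CPM, and its median depth of 7153 UMIs was above the 4252 and 3773 of clusters 1 and 2. Against the other collagen cells, 17, 16 and 13 of 24 papillary genes were 2-fold higher in clusters 1, 2 and 3, where the shares over all 11459 genes were 4.92%, 9.24% and 7.35%.

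The other 3 clusters held 502 cells (18.8%) and had fewer papillary genes above the other collagen cells. Cluster 4 (340 cells) led with Cxcl2, Kitl, Ccdc80 and Ccl2 and had 14329 CPM of Col1a2. It had 3 of 24 papillary genes 2-fold above the other collagen cells and 5 below, where the shares over all genes were 1.72% and 12.7%, with Bmp4 at 5.69 CPM and Lef1 at 16.1, and 32.6% of its cells were at exactly 3 rule UMIs. Cluster 5 (134 cells) led with Chodl, Lsp1, Tshz2 and Igfbp2 and included Cdh5, Nefl, Pnoc and Acta2 among its leading genes. Several marker sums were raised in it, at 382 CPM for pericyte and smooth muscle, 288 for endothelium, 263 for the Pnoc set and 243 for epidermis. In cluster 1 these sums were 72.5, 18.8, 55.9 and 66.1 CPM. Cluster 5 had 3807 CPM of Dlk1, near the 4238 of the comparison cells. In it 6 of 24 papillary genes were 2-fold above those cells and 1 below, and 12 of 28 condensate genes were above, where 4.76% of all genes were above and 6.41% below. Cluster 6 (28 cells) had Mbp, a myelin gene of Schwann cells, among its leading genes and Sox2 at 91.4 CPM. It had 6 papillary genes above the other collagen cells and 10 below, where the shares over all genes were 17.8% and 22.1%. These clusters are given by number and not named.

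**Figure D4:**
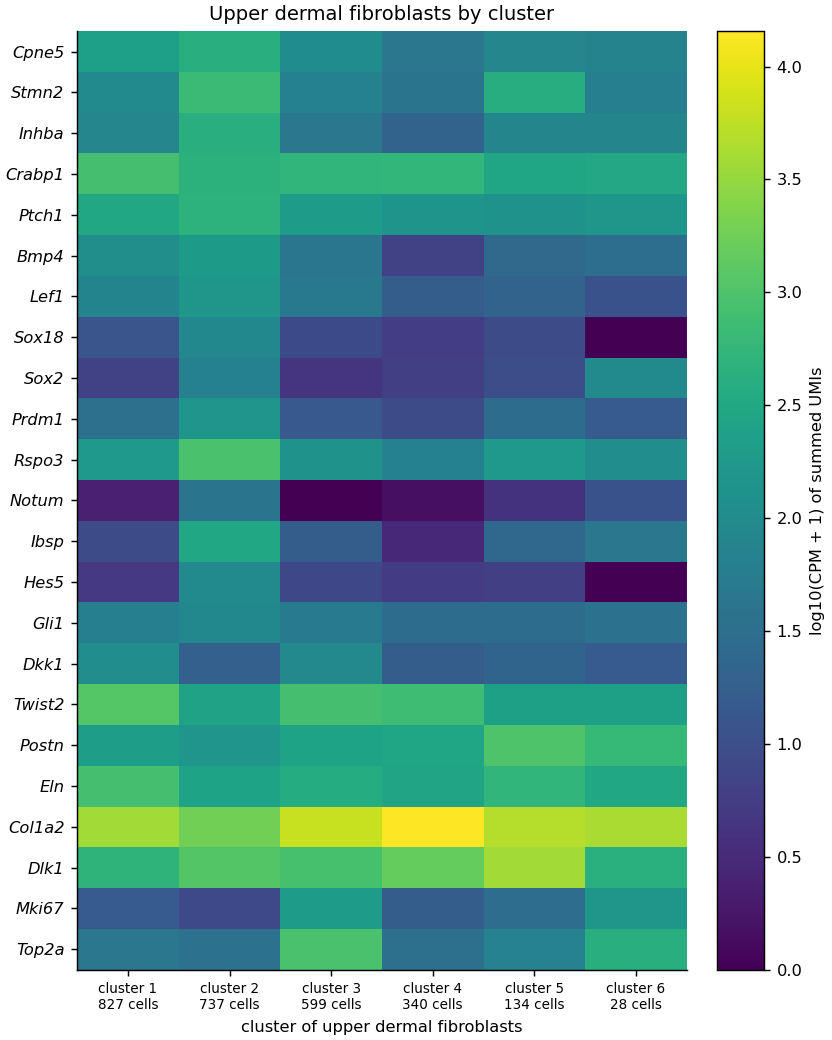
Summed expression in each of the 6 clusters of upper dermal fibroblasts, as log10(CPM + 1) by colour. Genes are rows and clusters are columns with their cell numbers. Rspo3, Sox18, Hes5, Ibsp and Notum are highest in cluster 2, Top2a and Mki67 in cluster 3, Col1a2 in cluster 4 and Dlk1 in cluster 5.

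Genes outside the rule were also read against each other within members thinned to 2000 UMIs. Lef1 was found in 30.6% of Sox18-positive and 12.8% of Sox18-negative members, and Sox18 in 11.05% of Bmp4-positive and 3.83% of Bmp4-negative members. Shares around the rule genes are shaped by the rule itself, since a member without 1 of them had to pass on the others. Sox18, for example, was found in 12.02% of Inhba-positive and 3.00% of Inhba-negative members and in 3.92% and 6.01% around Crabp1, and nothing is read from such splits.

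The same rule was read in the other libraries. At postnatal day 5 it found 178 of 325 collagen cells (54.8%, 49.2 to 60.3), and 194 or 145 with 2 or 5 rule UMIs in place of 3. The E18.5 mammary rudiment library had 14 of 403 collagen cells and the pre-puberty library 7 of 381. The C57BL/6 and SWISS adults had 3 each of 568 and 383, and every remaining library had 0 or 1. Collagen cells of the sorted mammary libraries are few and not drawn like those of skin. The other libraries shared between 0 and 153 barcodes with the skin library, up to 48 of them with members, and the postnatal day 5 library shared 0.

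In the postnatal day 5 library the rule-selected cells were compared with the other 147 collagen cells, over 3223 genes, of which 325 were 2-fold higher (10.1%) and 348 lower (10.8%). A gene could reach the 100 UMIs it needed through the group where it was high alone, so no count of genes shared with skin is read from this library. Rspo3 was at 1656 CPM in the selected cells and 55.5 in the others, Sox18 at 268 and 19.2, and Prdm1 at 229 and 7.07. Each of these genes had under 100 UMIs in the others and passed the filter through the selected cells, where it was high. No agreement with skin is therefore read from them. The comparison cells there were a different mix, with 2016 Fabp4 UMIs and 105 Dhh UMIs against 0 and 1 in the selected cells.

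Some genes lay on opposite sides in the skin and postnatal day 5 libraries, and values of a few are set side by side without a reading. Fgf7 stood at 147 UMIs in the selected cells and 3 in the others, against 2.77-fold lower in skin. Gdf10, a TGF-beta family ligand, stood at 127 and 6 UMIs there, so both genes reached 100 UMIs through the selected cells alone, and Sox2 stood at 92 and 184 UMIs. Vcan, which encodes versican, a proteoglycan of the hair papilla, was 2.36-fold lower in skin and 8.52-fold higher at postnatal day 5. The cell cycle list leaned upward in skin, but of its 16 genes tested at postnatal day 5, 0 were 2-fold higher and 8 were 2-fold lower. Over all genes of that library the shares were 10.1% and 10.8%, under the same filter. Whether stage, tissue or the mix of comparison cells moves these genes cannot be told apart.

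**Figure D5:**
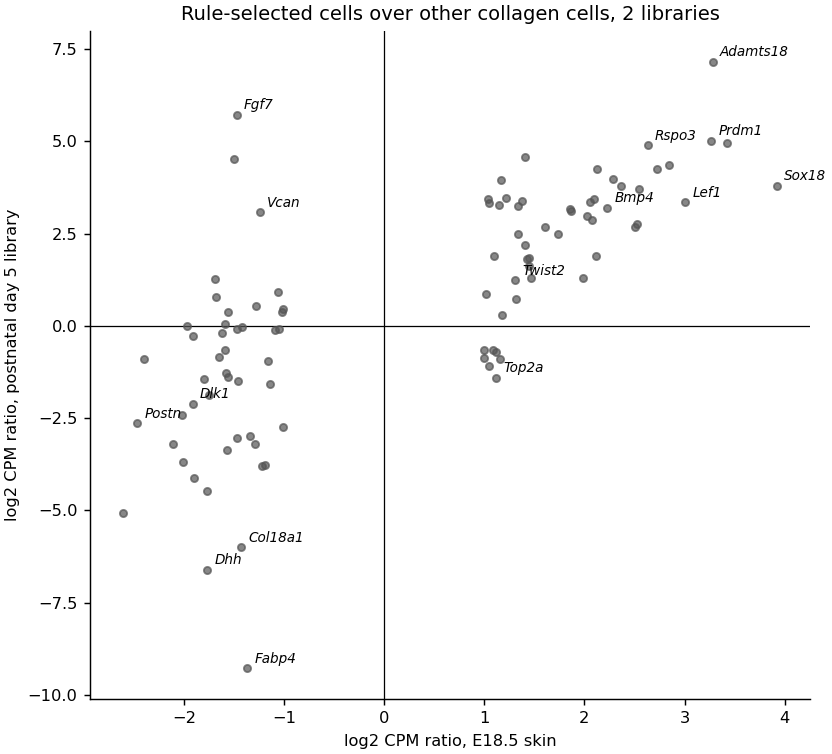
The log2 CPM ratio of rule-selected cells over other collagen cells in the E18.5 skin library (horizontal) and the postnatal day 5 library (vertical), with 1 point for each of 97 named genes that had enough UMIs in both, which favours genes that were high in 1 of the groups. Genes right of zero were at least 2-fold higher in skin and those left of zero at least 2-fold lower. Sox18, Prdm1, Rspo3 and Lef1 lie in the upper right, Fgf7 and Vcan in the upper left, and Top2a in the lower right.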

How the data were processed

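Single cells were captured with a 10x Genomics Chromium machine. The authors aligned and counted the reads with Cell Ranger (header 3.0.2 for the skin file and 3.1.0 for the postnatal day 5 file, while the labels name 3.1.0 and the mm10 build) and deposited raw UMI counts per gene for barcodes with 500 or more reads. The E18.5 skin library held 9184 barcodes and 50904927 UMIs, and 9052 cells were kept at a median of 5259.5 UMIs. Ribosomal, mitochondrial, rule and list genes were left out of the genes used for clustering.

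UMIs were summed per cell group and scaled to CPM. Intervals are exact Poisson for CPM, exact conditional binomial for ratios and exact Clopper-Pearson for shares, at 95%. Ratios were set against a floor of 3 counts for a group at 0, and the method was tested on simulated counts. Named genes were, among genes with a UMI in 5% or more of the cells of the higher group, the 20 highest and 10 lowest against all other collagen cells and the 5 highest and 5 lowest against each set. They also took in the rule genes and list members past 2-fold, without the 5% limit (32 of 230 lay under it). All 230 were therefore past 2-fold, and other list genes of known role that are printed above stand outside them. Members and gene lists were chosen with earlier results of these data known. Clusters came from scanpy 1.11.5 (2000 variable genes, 20 components, 15 neighbours, Leiden resolution 0.4). Scrublet called 74 of the kept cells doublets (0.817%), and doublets were not removed in the main values. The alternatives were other cell and gene limits, other rule thresholds, thinning, and leaving out cycling cells, likely doublets or cells with markers of other types. Gene positions are from GENCODE vM21 and promoters from RefSeq. Some genes are not reported here.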

Additional observations from a re-analysis of the deposited data

How the results depend on the processing

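No paired analysis was possible because the groups compared were cells of 1 and the same library, without replicate numbers to pair. The 230 named genes were all past 2-fold in the main setting, and the ratios of the rule genes among them are set by the rule. Under 15 alternative settings, between 204 and 230 of the 230 stayed past 2-fold. Settings that changed only the filter on genes could not move a ratio, so 230 of 230 was fixed there in advance. In at least 1 setting 45 genes lost the call and 63 moved by over 1.5 times, Notum from 8.28-fold to 42.0-fold. The highest values were 9.78-fold for Cxcr4, 9.34-fold for Bmp3, 7.60-fold for Wnt10a and 7.24-fold for Bmp7, and Dkk1 fell to 2.24-fold at the lowest. Against all other collagen cells, Nkd2 reached 6.93-fold higher, and Cyp26a1 reached 15.9-fold, Esr1 8.13-fold and Fzd4 7.03-fold lower, Rspo2 ran from 2.57-fold to 7.74-fold lower and Aldh1a1 was 3.17-fold lower at the least. Reading the rule after thinning to 2000 UMIs gave 1318 members, and leaving out cells with 3 or more cell cycle UMIs gave 821. With genes at 20 or more UMIs, 777 genes were higher and 1395 lower, and with no filter 3555 and 1951, the additional genes having few counts. The ratio of Aurka turned to 0.922 when the rule was read after thinning, that of Birc5 to 0.901 without cycling cells, and that of Ednrb to 1.13 without cells bearing markers of other types, an alternative chosen after seeing the data. The last setting left 2588 members, with 549 genes higher and 704 lower, and moved Sox2 from 2.23 to 7.81. The median log2 ratio of the cell cycle list ran from 0.13 to 0.87, of the condensate list from 1.67 to 2.09, of the papillary list from 1.24 to 1.56 and of the deep layer list from -1.82 to -1.59. Depth limits genes under 100 UMIs, and with 1 library no biological spread is known.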
